A study of Mus musculus with 11 samples.

Results

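Bri3bp, Gsn, Lsp1, Pafah1b3, Lmnb1, Cystm1 and Plp2 are 7 protein-coding genes, of 27998 measured, that were picked because their transcripts were higher in most macrophage (mac) libraries from mice lacking the transcription factor Zeb2. The WT against Zeb2KO values of these 7 genes therefore chose them and are given below as a description, without a test. Single-cell RNA sequencing had been run on microglia of the brain, colonic macs (CMs), liver Kupffer cells (KCs), lung alveolar macs (AMs) and splenic macs (SMs). For each of the 5 tissues there was 1 library from CRE-negative Zeb2fl/fl mice (WT) and 1 from CRE-positive Zeb2fl/fl mice (Zeb2KO), and an 11th library held WT KCs from CRE-negative Nr1h3fl/fl mice, which carry floxed alleles of another gene and an intact Zeb2. Zeb2fl/fl alleles were thus shared by 10 of the 11 libraries, and the methods give all mice as C57Bl/6, of both sexes, aged 6 to 8 weeks and compared with littermates.

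The study's methods name Clec4f-cre for the liver, Itgax-cre for the lung and Fcgr1-cre for brain, colon and spleen, whereas the sample labels give Fcgr1-cre for each Zeb2KO library, so these libraries are called Zeb2KO throughout. Itgax-cre also acts in other CD11c-expressing cells and Fcgr1-cre in other immune cells. According to the study, Zeb2KO macs outside the brain were mixtures of cells that had lost both copies of Zeb2 and cells that had kept one. The study also described recently arrived, putative monocyte-derived KCs in Zeb2KO liver, and compared CMs only within those high in Cd74. A liver cluster with Cx3cr1 and Ccr2 among its leading genes held 0.832% of WT and 10.9% of Zeb2KO cells that passed filtering. A colon cluster led by Cd163 held 29.6% and 1.86%. The sums below take in all such subsets, and their part in the ratios was not tested. With 1 library per tissue and genotype there was no replicate check: intervals are 95% intervals of counting error only, and animal, sort and library preparation cannot be told apart from genotype within a tissue. The libraries of a tissue were alike in Xist, a transcript of female cells: it stood at 1771 and 1878 CPM (UMIs of a gene per 1000000 UMIs) in WT and Zeb2KO microglia, 1174 and 1153 CPM in CMs, and 1221 and 1202 CPM in SMs, and at 0 UMIs in the 3 KC libraries and 1 and 0 UMIs in the AM libraries.

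ZEB2 is a zinc finger repressor that binds E-box sequences, best known for silencing epithelial genes when cells become mesenchymal, and it is expressed by macs of every tissue studied here. The genes described here share no pathway. Lsp1 encodes an F-actin binding protein of leukocytes and Gsn encodes gelsolin, which severs and caps actin filaments. Lmnb1 encodes lamin B1 of the nuclear lamina, Pafah1b3 a catalytic subunit of the intracellular enzyme that inactivates platelet-activating factor, and Plp2 a small membrane protein of the MARVEL family. Bri3bp and Cystm1 encode small membrane proteins that are less well characterised.

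In the mm10 mouse genome Bri3bp lies on chromosome 5 (125441568 to 125460370, plus strand), Gsn on chromosome 2 (35256380 to 35307892, plus), Lsp1 on chromosome 7 (142460809 to 142494867, plus) and Pafah1b3 also on chromosome 7 (25295049 to 25297986, minus). Plp2 is on chromosome X (7667941 to 7671390, minus). Because ZEB2 binds E-boxes, promoters were searched for CACCTG and CAGGTG, which are reverse complements of each other, so that 1 search covers both strands. RefSeq promoter sequences (GRCm38.p6, 250 bases before to 50 bases after the start) were at hand for 2 of the 7 genes, and both held 1 match. The 30 bases around each match are shown because they are the DNA at which such a factor could bind, with the E-box in capitals:
Bri3bp, chr5:125441347-125441376, plus strand: ggggaggtgacaCACCTGtccttcagtgtt
Gsn, chr2:35266691-35266720, plus strand: accctccagcagCAGGTGtgggcagtgcta
The Bri3bp match lay 209 bases upstream of the start and the Gsn match 41 bases upstream, in 1 of 3 annotated Gsn promoters. Among all 32851 promoters of this length 6640 (20.2%) held such a match, and 6098 of 27025 genes (22.6%) had it in at least 1 promoter. A match of letters is not evidence that the site is bound.

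Macs kept after filtering numbered 2830 (WT) and 3243 (Zeb2KO) for microglia, 4371 and 3874 for CMs, 4027 and 3914 for KCs, 6972 and 6244 for AMs, 3166 and 2925 for SMs, and 3487 for Nr1h3fl/fl WT KCs. They carried 8002117 to 43206081 UMIs (unique molecular identifiers, counted transcripts) per library, with a median of 2218 to 9220 per cell. Libraries shared 14 to 76 cell barcodes, at most 1.45% of the smaller library. Defining markers of the labelled macs were present in both libraries of each tissue, most of those named here at a lower level in Zeb2KO: Clec4f stood at 6086 CPM in WT and 2121 CPM in Zeb2KO KCs, Tmem119 at 2428 and 1869 CPM in microglia, Fabp4 at 397.4 and 75.9 CPM and Siglecf at 126.3 and 69.2 CPM in AMs, where Car4 (525.7 and 757.5 CPM) and Chil3 (5761 and 20637 CPM) were higher, Vcam1 at 6854 and 5085 CPM in SMs, and Cx3cr1 at 578.6 and 509.5 CPM in CMs. The level of Zeb2 itself was higher in each Zeb2KO library: it was 3.67-fold higher in microglia, 2.02-fold in KCs, 1.54-fold in AMs, 1.27-fold in CMs and 1.22-fold in SMs, against 1.32-fold between the 2 control KC libraries (388.8 and 513.4 CPM). The deleted allele still makes the 3′ end that is counted, so this level does not check the deletion.

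Levels below are UMIs summed over the macs of a library, in CPM, and are compared only within a gene. A gene was counted as 2-fold higher or lower where it reached 20 CPM in either library and the log2 ratio of CPM + 1 was at least 1 in size. By that rule all 7 genes were higher in Zeb2KO KCs, 6 in AMs and 5 each in microglia, SMs and CMs, and none was lower. Over all genes that reached 20 CPM, 3.47% were higher and 1.2% lower in KCs, 4.35% and 7.31% in AMs, 4.27% and 4.07% in microglia, 2.37% and 0.877% in SMs, and 1.09% and 0.487% in CMs. These shares stand beside the counts for scale only, since the genes were chosen for this rise. All 35 ratios, of 7 genes in 5 tissues, were above 0. Bri3bp passed in 5 tissues, Gsn, Lsp1, Pafah1b3, Lmnb1 and Cystm1 in 4, and Plp2 in 3. Across the transcriptome 10 genes passed in 4 tissues; the other 5 of these were S100a11, Ccl3, Ly6a, Ltb and Ms4a1. Plp2 was 1 of 29 genes that passed in 3.

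**Figure D1:**
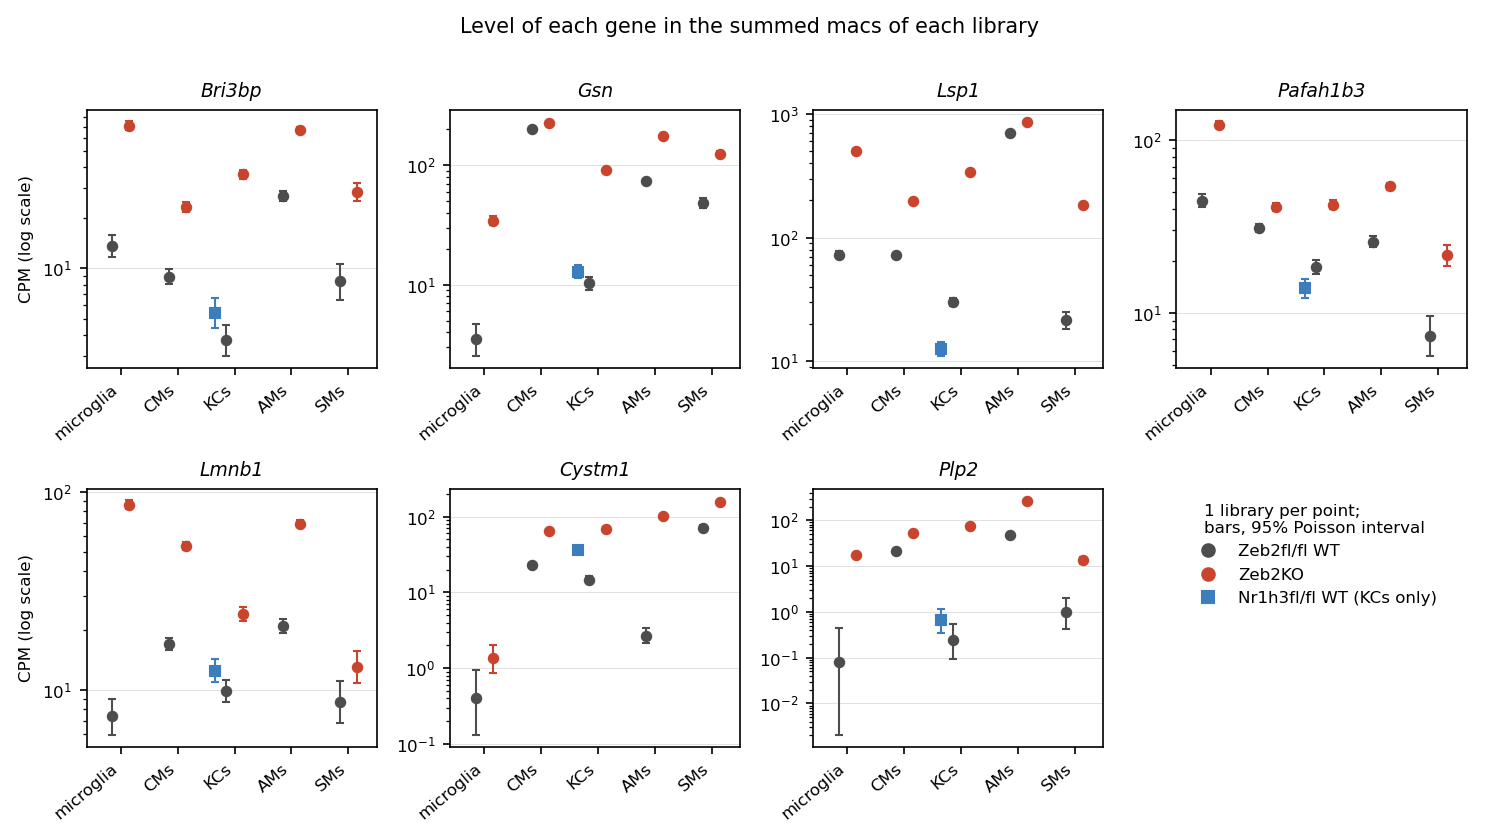
Level of each gene in the macs of 11 libraries (CPM, log scale), 1 panel per gene; grey points are WT, red points Zeb2KO and the blue square Nr1h3fl/fl WT KCs, with 95% Poisson intervals. The red point lies above the grey one in all 35 gene and tissue pairs, while the blue square lies near the other WT KC library for most genes.

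The 2 control KC libraries, both with intact Zeb2, gave the scale of difference between libraries of the same kind. Of the 7 genes 2 reached 20 CPM in either of them, and both differed by the 2-fold rule, against 1.39% of all genes that reached 20 CPM (0.504% higher and 0.883% lower in the Nr1h3fl/fl library). Cystm1 was higher in the Nr1h3fl/fl library (36.2 against 14.8 CPM, log2 ratio 1.24) and Lsp1 was lower (12.6 against 30.3 CPM, log2 ratio −1.20). Of the 733 Lsp1 UMIs of WT KCs, 308 came from 65 cells (1.61%) of a cluster led by Alox15, Prg4 and Slpi, which held 42 Zeb2KO KCs and no cell of the Nr1h3fl/fl library. Without this cluster, an alternative added after seeing the data, WT KCs stood at 18.2 CPM of Lsp1 and the control log2 ratio was −0.50, so that Lsp1 was under 20 CPM in both libraries and could not be counted. The log2 ratio of the other 5 genes, which were under 20 CPM in both control libraries, ran from −0.39 for Pafah1b3 to 0.44 for Bri3bp. Across genes the log2 ratio between these libraries was correlated with transcript length (Spearman's rho 0.54 over 5399 genes, against −0.42 for Zeb2KO KCs over the Nr1h3fl/fl library, −0.35 in the AM pair and −0.21 in the SM pair). In the KC, microglia and CM pairs rho was −0.08 to 0.07. With the median ratio of genes of like length taken off, 7 genes passed the rule in KCs (log2 ratios 1.13 to 5.92), 5 in microglia and 5 in CMs. The part of length was not tested further. Set against the Nr1h3fl/fl library in place of the WT littermates, Zeb2KO KCs had 5 of the 7 genes higher (4.19% of all genes at 20 CPM or more) and none lower (3.93%). Lmnb1 (log2 ratio 0.89) and Cystm1 (0.91) then fell short of 2-fold, and the ratio of Lsp1 grew to 4.64.

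Of the actin-related genes, Lsp1 stood at 73.0 CPM in WT and 497.3 CPM in Zeb2KO microglia, 72.0 and 197.2 CPM in CMs, 30.3 and 337.7 CPM in KCs, and 21.4 and 182.6 CPM in SMs. These are log2 ratios of 2.75, 1.44, 3.43 and 3.04. Without the Alox15-led cluster the KC ratio was 4.13, from 18.2 to 336.2 CPM. In WT SMs 69 of the 171 Lsp1 UMIs came from the 5.84% of cells in a cluster led by the B cell gene Fcer2a that had been kept with the macs, and without it the SM ratio was 3.63. With no cluster of other cell types left out the SM ratio was 1.60. AMs differed: WT AMs already held 702.6 CPM, more than the Zeb2KO macs of any other tissue, and Zeb2KO AMs 859.9 CPM (log2 ratio 0.29). WT levels of Lsp1 were ordered AMs, microglia, CMs, KCs, SMs and Nr1h3fl/fl KCs, and only microglia and CMs among neighbours had overlapping counting intervals. Without the Alox15-led cluster WT KCs (18.2 CPM) stood below the 21.4 CPM of SMs.

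Gsn was lowest in WT microglia (3.49 CPM) and stood at 34.3 CPM in Zeb2KO microglia, a 9.83-fold difference with a counting interval of 7.21 to 13.7. KCs showed a similar difference, from 10.3 CPM to 90.3 CPM, with 12.8 CPM in the Nr1h3fl/fl library. Smaller differences were seen in AMs (73.4 and 175.0 CPM, log2 ratio 1.24) and SMs (48.1 and 123.7 CPM, 1.34). WT CMs held the highest WT level, 200.1 CPM, and Zeb2KO CMs 226.9 CPM (log2 ratio 0.18). For both actin-related genes the tissue with the highest WT level was thus the one that fell short of 2-fold. The other genes described here went the other way, each passing the rule in the tissue of its highest WT level. Colon fibroblasts, which make much gelsolin, were left out of the CM sums. The summed level of fibroblast marker genes in the kept macs was 155.7 CPM in WT and 108.1 CPM in Zeb2KO CMs, and its part in the Gsn level was not tested.

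Lmnb1 (chromosome 18, 56707813 to 56753424, plus strand) stood at 7.38 CPM in WT and 86.2 CPM in Zeb2KO microglia, 11.7-fold higher (9.45 to 14.6). It was also higher in CMs (17.1 and 53.5 CPM, log2 ratio 1.59), AMs (21.03 and 69.2 CPM, 1.67) and KCs (9.93 and 24.2 CPM, 1.20). In SMs it reached 8.75 CPM in WT and 13.1 CPM in Zeb2KO, under the 20 CPM floor. In the WT order, KCs and SMs, and SMs and microglia, were neighbours not apart by counting error. Lamin B1 is known to be abundant in dividing cells, so cells with at least 2 UMIs of a cell cycle gene list were looked at apart. They made up 5.74% of WT KCs, 14.7% of Zeb2KO KCs and 7.71% of Nr1h3fl/fl KCs. Over all macs of these libraries the median was 5365, 5869 and 4500 UMIs per cell. The Lmnb1 level was higher in the cells with at least 2 such UMIs than in the other KCs by log2 2.38, 2.94 and 3.004. Without these cells the Lmnb1 ratio in KCs went from 1.20 to 0.43. In CMs the highest ratio of the 7 genes, which was that of Lmnb1 (1.59) over all macs, was 2.08 without them. The share of such cells depends on depth. It was 18.1% of WT and 17.7% of Zeb2KO CMs, the deepest libraries, where the cluster led by cell cycle genes such as Top2a and Birc5 held 3.55% and 4.21% of the macs, so most of these CMs are not shown to divide.

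Pafah1b3 had the narrowest range of ratios over the tissues. It stood at 44.4 and 122.4 CPM in WT and Zeb2KO microglia (log2 ratio 1.44), 18.4 and 42.2 CPM in KCs (1.15), 25.7 and 53.8 CPM in AMs (1.04) and 7.37 and 21.6 CPM in SMs (1.43). AMs lay just inside the 2-fold rule. Nr1h3fl/fl WT KCs held 13.8 CPM, below the WT littermate KCs. CMs fell outside it, at 30.8 and 40.7 CPM (log2 ratio 0.39).

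The small membrane proteins included the largest ratios. Plp2 was represented by 6 UMIs among all WT KCs (0.248 CPM) and by 12 UMIs in Nr1h3fl/fl KCs (0.658 CPM), against 1982 UMIs (77.1 CPM) in Zeb2KO KCs, a log2 ratio of 5.97. WT microglia held 1 UMI and Zeb2KO microglia 297 UMIs (17.5 CPM), for which the counting interval of the fold ran from 38.5 to 8577. SMs held 8 UMIs in WT and 125 UMIs in Zeb2KO (13.3 CPM). Plp2 was therefore close to undetected in 3 of the 5 WT macs, and its Zeb2KO level in microglia and SMs stayed under the 20 CPM floor. In CMs (21.1 and 53.5 CPM, log2 ratio 1.30) and AMs (48.4 and 268.3 CPM, 2.45) it was present in WT. WT SMs lay below WT CMs beyond counting error, while the levels of SMs, Nr1h3fl/fl KCs, WT KCs and microglia, in this order, were not apart between neighbours. With no cluster left out the ratio of Plp2 was 4.77 in KCs and, in SMs, 1.37 rather than 2.84.

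Cystm1 (chromosome 18, 36342520 to 36403097, plus strand) stood at 2.70 CPM in WT and 102.9 CPM in Zeb2KO AMs, 38.1-fold higher (30.3 to 48.7). It was also higher in KCs (14.8 and 69.1 CPM, log2 ratio 2.15), CMs (23.3 and 64.1 CPM, 1.42) and SMs (70.9 and 155.8 CPM, 1.13). In microglia it stayed near 0, with 5 UMIs in WT and 23 UMIs in Zeb2KO. In WT, SMs held the highest level and microglia the lowest, and each neighbour in the order SMs, Nr1h3fl/fl KCs, CMs, KCs, AMs and microglia differed beyond counting error. In KCs the ratio has to be read beside the gap of 1.24 between the 2 control libraries.

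Bri3bp had low levels throughout. The WT macs held 27.1 CPM in AMs, 13.6 in microglia, 8.91 in CMs, 8.37 in SMs and 3.73 in KCs, and Nr1h3fl/fl KCs 5.43 CPM. In Zeb2KO these levels were 66.9, 71.2, 23.3, 28.6 and 36.4 CPM, giving log2 ratios of 1.27, 2.30, 1.29, 1.66 and 2.99. Without the Fcer2a-led cluster the SM ratio was 2.05. The WT levels of CMs and SMs could not be told apart by their counting intervals. Every Zeb2KO library except CMs thus lay above the highest WT library, which was AMs. The 28.6 CPM of Zeb2KO SMs was within the counting interval of WT AMs (25.2 to 29.1 CPM). The fold ran from 2.47 in AMs to 9.78 (7.87 to 12.3) in KCs.

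**Figure D2:**
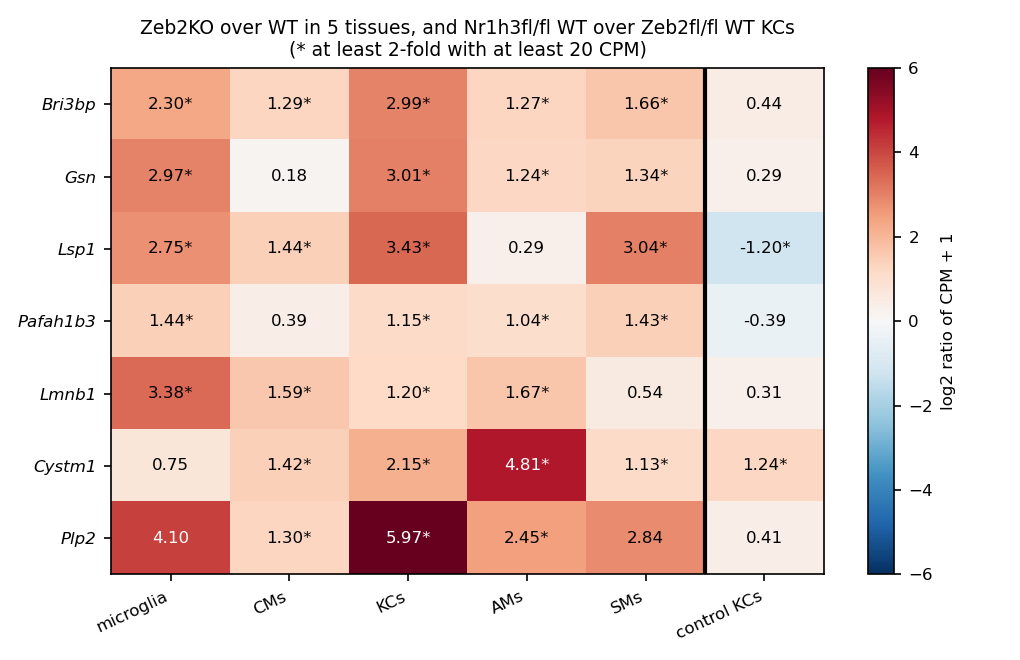
Log2 ratio of CPM + 1 for each gene (rows) in each comparison (columns), coloured by size, with an asterisk where the 2-fold rule was met. The 5 Zeb2KO columns hold only values above 0, from 0.18 for Gsn in CMs to 5.97 for Plp2 in KCs, and the control KC column runs from −1.20 to 1.24.

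Markers of other cells moved with genotype in some pairs. A neutrophil list summed to 59.3 CPM in WT and 23881 CPM in Zeb2KO AMs, of which S100a8 made 14191 and S100a9 9358 CPM. Of its other genes Cxcr2 stood at 2.70 CPM in WT and 177.9 CPM in Zeb2KO AMs, Csf3r at 11.99 and 95.9 CPM and Mmp8 at 21.7 and 58.2 CPM, whereas Ly6g and Retnlg were at 0 in WT and at 0.322 and 0.134 CPM in Zeb2KO. In the other pairs the same list ran from 25.2 to 196.8 CPM in WT and from 55.5 to 459.2 CPM in Zeb2KO. In SMs a dendritic cell list stood at 15.9 CPM in WT and 59.3 CPM in Zeb2KO, and a B cell list at 255.8 and 154.0 CPM. An erythroid list went from 609.4 to 40.2 CPM in microglia and from 217.3 to 11.05 CPM in KCs, and a hepatocyte list from 1.22 to 60.5 CPM in microglia. The part of these lists in the member levels was not tested. The median log2 ratio of all genes at 20 CPM or more was −0.31 in AMs, against −0.09 to 0.05 in the other tissues.

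The share of macs with at least 1 UMI was compared after thinning each cell to 1500 UMIs, which sets the same depth in all cells. This left out 815 WT and 529 Zeb2KO SMs and 28 WT AMs that had fewer UMIs. The interval of the Zeb2KO share lay above that of the WT share for 7 genes in KCs and AMs and 6 in microglia, SMs and CMs, and for none below. Of the genes that reached 20 CPM, a limit not set on the 7 genes here, 17.7% had such a gap above and 14.3% below in KCs, 16.3% and 51.4% in AMs, 14.7% and 19.9% in microglia, 11.8% and 11% in SMs, and 13.1% and 7.08% in CMs. Between the 2 control KC libraries they were found for 27.7% of genes above and 14.6% below, and for Cystm1 above and Lsp1 below among the 7. Lsp1 was found in 9.96% of WT and 51.1% of Zeb2KO microglia, 3.25% and 33.9% of KCs, 8.03% and 20.5% of CMs, 2.89% and 20.3% of SMs, and 63.0% and 69.9% of AMs. Plp2 was found in none of the thinned WT KCs (upper limit 0.0916%) and in 10.6% of Zeb2KO KCs, and in 6.08% and 29.4% of AMs. Cystm1 was found in 0.360% of WT AMs (0.233 to 0.531) and 11.6% of Zeb2KO AMs (10.8 to 12.4). The rarer transcripts followed the same direction. Bri3bp went from 1.94% of WT to 10.6% of Zeb2KO microglia and from 0.571% to 5.57% of KCs, and Gsn from 0.530% to 5.03% of microglia and from 1.66% to 11.8% of KCs. Lmnb1 was found in 0.777% of WT and 10.7% of Zeb2KO microglia, and Pafah1b3 in 6.75% and 17.1% of them. The shares whose intervals overlapped were Gsn in CMs (24.6% and 26.1%), Lmnb1 in SMs (1.15% and 1.96%) and Cystm1 in microglia (0.106% and 0.247%). Cells with a UMI of a gene held 1.0 to 1.81 UMIs of it on average.

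**Figure D3:**
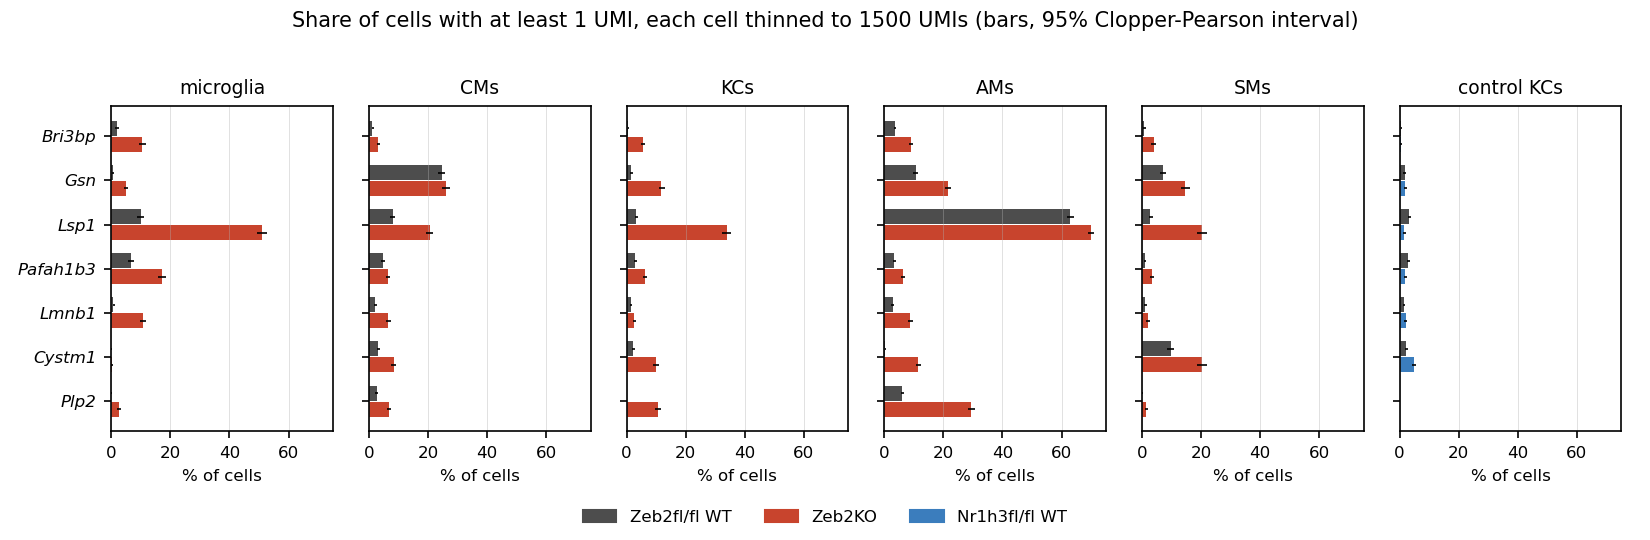
Share of macs (%) with at least 1 UMI of each gene at 1500 UMIs per cell, in 6 panels for the 5 tissues and the control KCs, with 95% Clopper-Pearson intervals. Lsp1 in Zeb2KO microglia (51.1%) and Cystm1 in Zeb2KO AMs (11.6%) stand far from their WT shares of 9.96% and 0.360%.

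Cells of other types in the same libraries, left out of the sums, were looked at for comparison at the same 1500 UMIs. Some of them carried mac markers, with a mean log2 ratio to the remaining cells of the tissue of −0.08 in the hepatocyte-like and −0.44 in the spleen erythroid-like cluster, so they are no measure of free RNA alone, and the microglia libraries gave 0 such cells and the AM libraries too few to describe (21 in WT and 32 in Zeb2KO). Lsp1, a leukocyte gene, was found in 1 of 127 hepatocyte-like cells (0.787%) of the Nr1h3fl/fl library, against 1.55% of its KCs. Left-out B cells held it in 29.5% (WT) and 27.7% (Zeb2KO) of cells in the spleen and 32.9% and 43.2% in the liver. Dendritic cells, with 20 to 45 cells per library, held it in 46.2% and 60% in the spleen and 70% and 73.8% in the liver. In the liver endothelial-like cluster it was found in 1.92% of 104 cells in WT and 19.8% of 328 cells in Zeb2KO, below the 33.9% of Zeb2KO KCs. Plp2 (0% and 6.10%) and Gsn (0.962% and 8.54%) also had intervals apart between WT and Zeb2KO in these endothelial-like cells. Those of Bri3bp (0% and 2.13%) overlapped. Erythroid-like cells of the spleen held Lsp1 in 7.79% of WT and 17.0% of Zeb2KO cells, with overlapping intervals. The WT share of SMs (2.89%) was below that of the WT erythroid-like cells, and the Zeb2KO share of SMs (20.3%) lay inside the interval of the Zeb2KO erythroid-like cells (10.2 to 25.8%). In the colon fibroblast-like cells held Lsp1 in 22.2% (WT) and 31.2% (Zeb2KO), above the 8.03% and 20.5% of CMs, and Plp2 in 12.5% and 15.2%, above the 2.61% and 6.79% of CMs. Gsn was found in 7.79% of WT erythroid-like cells of the spleen, against 6.98% of WT SMs. Erythroid-like cells of the Zeb2KO spleen also held Pafah1b3 in 4% of cells, against 3.26% of SMs. Cystm1 was found in 1.40% (WT) and 1.52% (Zeb2KO) of liver B cells and in 2.88% and 7.01% of liver endothelial-like cells, against 2.26% and 9.96% of KCs. It was also found in 4.72% of hepatocyte-like cells of the Nr1h3fl/fl library, against 4.90% of its KCs, and in 5.84% (WT) and 14% (Zeb2KO) of erythroid-like cells of the spleen, against 9.70% and 20.3% of SMs.

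At least 1 of the 7 genes was found in 18.7% of WT and 69.8% of Zeb2KO microglia, 39.4% and 52.6% of CMs, 11.3% and 54.2% of KCs, 72.2% and 87.7% of AMs, and 20.7% and 48.2% of SMs, with 12.04% in Nr1h3fl/fl KCs. At least 3 of them were found together in 3.48% of Zeb2KO microglia where 3.72% were expected from independent detection, and in 4.96% against 2.86% of CMs, 4.98% against 2.93% of KCs, 3.09% against 1.61% of SMs and 16.8% against 15.6% of AMs. Whether they were found in the same cells was asked by counting cells with both genes of a pair, summed over the 21 pairs, against the number that independent detection would give. The ratio of observed to expected was 1.01 (0.946 to 1.07) in Zeb2KO microglia, 1.04 (1.02 to 1.07) in AMs, 1.29 (1.18 to 1.41) in SMs, 1.34 (1.27 to 1.41) in KCs and 1.37 (1.29 to 1.44) in CMs. In WT the ratio was 1.20 (0.868 to 1.62) in microglia, 1.07 (0.955 to 1.19) in CMs, 1.20 (0.79996 to 1.74) in KCs, 0.992 (0.940 to 1.05) in AMs and 1.06 (0.768 to 1.42) in SMs, and 1.19 (0.776 to 1.74) in Nr1h3fl/fl KCs. A cell with 3 or more of the genes counts in several pairs, and the expected number was taken as fixed, so these Poisson intervals are only approximate. By them WT and Zeb2KO were apart only in CMs, and this gap was not tested. For the other tissues a difference between the genotypes was not detectable at this depth. When the expected number was worked out within each cluster of similar cells, a choice made after seeing the data, the ratios were 1.01, 0.996, 1.01, 1.04 and 1.09. The ratios of CMs, KCs and SMs were thus lower within clusters.

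**Figure D4:**
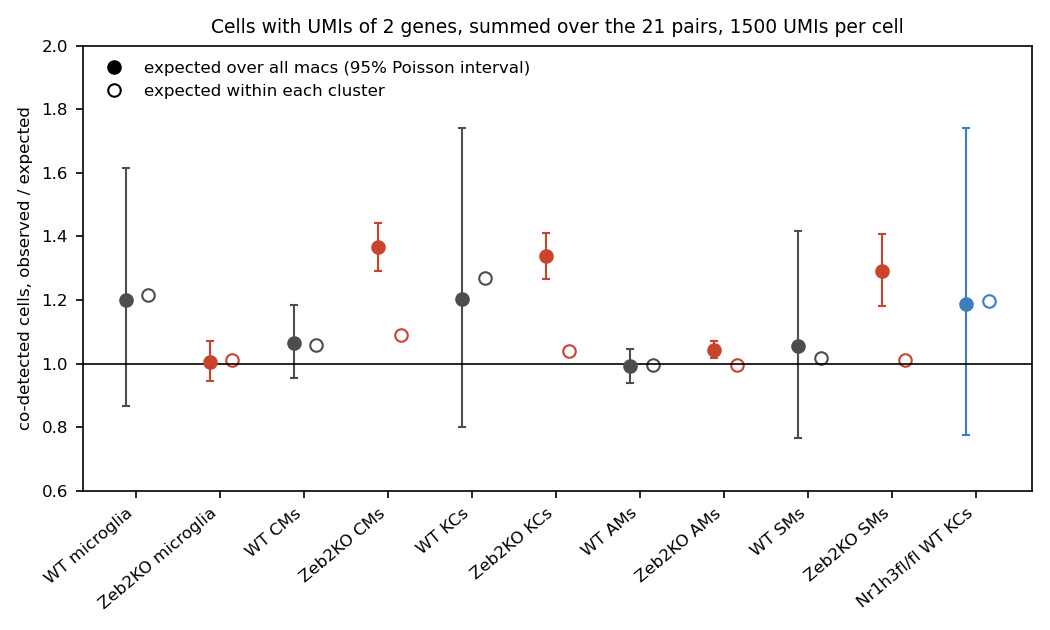
Observed over expected number of cells with both genes, summed over 21 pairs, for each library. Filled points take the expectation over all macs, with approximate 95% Poisson intervals, and open points within clusters. Filled points of Zeb2KO CMs, KCs and SMs stand at 1.29 to 1.37, and their open points at 1.01 to 1.09.

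Pairs with Lsp1 were among those seen together more often. In Zeb2KO CMs 111 cells held both Lsp1 and Lmnb1 where 52.7 were expected, 60 held Lsp1 and Bri3bp where 25.4 were expected, and 301 held Lsp1 and Gsn where 207.9 were expected. In Zeb2KO SMs Lsp1 and Gsn met in 137 cells against 71.6 expected. Lsp1 and Plp2 met in 230 Zeb2KO KCs against 140.9 expected. Pairs with Lmnb1 in Zeb2KO KCs rested on few cells, such as 5 with Cystm1 where 10.2 were expected and 11 with Plp2 where 10.8 were expected. Lsp1 and Lmnb1 met less often than expected in Zeb2KO KCs (27 against 34.6) and microglia (159 against 177.3). Besides CMs, they met more often in Zeb2KO SMs (17 against 9.53) and AMs (403 against 386.0). In Zeb2KO AMs Cystm1 and Plp2 met in 270 cells against 212.6 expected. Across cells of a library the rank correlations were low, at most 0.195 (Gsn with Lsp1 in SMs), and counts this sparse are not read further.

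Cells that had lost Zeb2 entirely were marked in the study by genes that were higher on its loss. These were Siglecf and Cd101 in the brain, Ms4a1 and Siglecf in colon and liver, Epcam and Cd101 in the lung, and Siglecf and Epcam in the spleen. Those markers were chosen by the study on these same libraries, and SiglecF-positive cells had been gated out of the CM and SM sorts. Zeb2KO macs with at least 1 marker UMI numbered 2317 in AMs (37.1%), 1589 in microglia (49.0%), 1095 in KCs (28.0%), 185 in CMs (4.78%) and 61 in SMs (2.55%). In WT the numbers were 393 AMs (5.66%), 148 microglia (5.23%), 11 KCs (0.273%), 7 CMs (0.160%) and 1 SM (0.0425%). Among Zeb2KO cells thinned to 3000 UMIs the shares were 71.5% in microglia, 59.5% in AMs and 41.8% in KCs. A marker UMI, or its lack, thus does not show whether a cell lost Zeb2. Of the 7 genes, 5 each in KCs, AMs and CMs, 4 in SMs and none in microglia had a higher share in Zeb2KO macs with a marker UMI than in those without, with intervals apart. Lmnb1 in KCs had a lower share. Of the genes that reached 20 CPM in the Zeb2KO library, a limit again not set on the 7, 8.21% were higher and 8.89% lower in KCs, 5.98% and 11.6% in AMs, 5.58% and 8.82% in CMs, 2.96% and 2.08% in SMs, and 0.202% and 0.257% in microglia.

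Lsp1 was found in 49.7% of marker-positive and 19.1% of other Zeb2KO CMs, in 51.1% and 27.2% of KCs, in 55.7% and 19.4% of SMs, and in 50.5% and 51.7% of microglia. Gsn followed it, with 48.6% and 25.02% in CMs, 19.6% and 8.80% in KCs and 29.5% and 14.3% in SMs. Plp2 was found in 16.3% and 8.41% of KCs and 36.1% and 25.4% of AMs. Lmnb1 differed in direction, being found in 20% of marker-positive and 5.96% of other CMs but in 1.46% and 3.05% of KCs. Cystm1 was more frequent in marker-positive AMs (15.1% and 9.50%) and KCs (14.9% and 8.05%), but not in CMs (8.11% and 8.43%) or SMs (18.03% and 20.4%). The intervals of Pafah1b3 were not apart in any tissue at this depth. At 3000 UMIs per cell they were apart in AMs and KCs. There all 7 genes had intervals apart, with 7 higher in Zeb2KO AMs and 6 higher and 1 lower in Zeb2KO KCs.

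The spread over clusters, which were drawn without using these 7 genes, also differed between tissues. Clusters largely split by library in microglia, where the largest held 54.5% of WT and 0.0308% of Zeb2KO cells. Setting Zeb2KO against WT clusters thus repeats, on parts of the same libraries, the contrast that chose the genes. In microglia all 6 Zeb2KO clusters compared, with 98.9% of the Zeb2KO cells, lay above every WT cluster for each gene except Cystm1. The Lsp1 level, for instance, ran from 68.1 to 78.4 CPM over the WT and from 399.9 to 553.3 CPM over the Zeb2KO clusters. In KCs all 9 Zeb2KO clusters lay above the WT clusters for Bri3bp (at most 5.04 CPM in WT, at least 9.01 CPM in Zeb2KO), in AMs all 10 for Gsn (at most 88.9 and at least 92.2 CPM) and in SMs all 6 for Cystm1 (at most 84.6 and at least 126.3 CPM). In other cases fewer clusters did so. For Lmnb1 no AM cluster, 1 of 9 KC clusters, 1 of 10 CM clusters and 1 of 6 SM clusters lay above WT, whose CM clusters already ran from 3.55 to 117.7 CPM. For Lsp1 this was so of 2 of 9 KC clusters and for Bri3bp of 1 of 6 SM clusters, and in both cases 1 WT cluster set the limit. Outside the Alox15-led cluster (359.9 CPM) the WT KC clusters held at most 27.3 CPM of Lsp1 and the lowest Zeb2KO cluster 70.6 CPM. Outside the Fcer2a-led cluster (29.9 CPM) the WT SM clusters held at most 7.58 CPM of Bri3bp, and 5 of the 6 Zeb2KO clusters more. These 6 still include the Fcer2a-led cluster, with 2.94% of the Zeb2KO SMs.

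Among the 3 or 4 clusters of each tissue that held at least 10% of its Zeb2KO macs, the one with the highest marker level in CPM was then set against the remaining Zeb2KO macs, a choice made after the values were seen. This cluster held 1839 cells in KCs (leading genes Il1r2, Ddit4 and Pglyrp1), 1337 in microglia (Rnd1 and Ctla2a), 735 in CMs (Hp, Mmp8 and Ltb), 1809 in AMs (Sdr16c6, Scd1 and Ltb) and 696 in SMs (Il1f9, Skint3 and Plet1). It held no WT mac in microglia, KCs or AMs, 21 in CMs and 8 in SMs. Of the 7 genes, 6 in SMs (5.09% of all genes at 20 CPM or more), 5 in KCs (3.46%), 4 in CMs (5.97%) and none in microglia (0.319%) or AMs (0.195%) were 2-fold higher in it than in the remaining Zeb2KO macs. These remaining macs were in turn 2-fold above WT for 6 genes in microglia (4.76%), 5 in KCs (2.4%), 5 in AMs (4.25%), 2 in SMs (1.47%) and 2 in CMs (0.581%). This is again the contrast that chose the genes, so the all-gene shares stand beside these counts for scale only. In microglia Plp2 was among the 6, at 22.4 CPM in the remaining macs, just above the floor. In microglia and AMs the markers hardly set the cluster apart, at 464.5 and 497.3 CPM in it and 424.0 and 346.8 CPM in the remaining Zeb2KO macs, and the next cluster stood at 455.1 and 483.0 CPM. In CMs (157.1 and 8.01 CPM), KCs (504.0 and 66.5 CPM) and SMs (57.0 and 4.61 CPM) they did, and in CMs and SMs 2 genes were 2-fold above WT outside the cluster.

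The CM cluster held Lsp1 at 564.9 CPM, against 109.6 CPM in the other Zeb2KO CMs and 72.0 CPM in WT. Lmnb1 there was at 173.5, 24.9 and 17.1 CPM, Bri3bp at 77.2, 10.48 and 8.91 CPM, and Gsn at 423.8, 180.0 and 200.1 CPM. Cystm1 did not follow, at 63.5, 64.3 and 23.3 CPM. The SM cluster also stood well above the other Zeb2KO SMs for Gsn (321.7, 54.1 and 48.1 CPM), Lsp1 (454.6, 87.0 and 21.4 CPM) and Plp2 (40.6, 3.75 and 0.9997 CPM). For Cystm1 it was nearly level with them (162.1, 153.6 and 70.9 CPM). In the CM cluster a general mac list summed to 9750 CPM against 18715 CPM in the other Zeb2KO CMs, a neutrophil list to 225.6 against 30.2 CPM and a dendritic cell list to 47.1 against 11.5 CPM. In the SM cluster the dendritic cell list summed to 128.4 against 35.04 CPM and the neutrophil list to 110.8 against 61.4 CPM, and the part of these lists was not tested.

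KCs lay between these patterns. Lsp1 stood at 556.6 CPM in the marker-rich cluster, 160.5 CPM in the other Zeb2KO KCs and 30.3 CPM in WT KCs, and Plp2 at 141.4, 24.99 and 0.248 CPM. Bri3bp (60.8, 16.8 and 3.73 CPM), Gsn (157.3, 36.0 and 10.3 CPM) and Cystm1 (109.4, 36.5 and 14.8 CPM) had the same order. Lmnb1 was the exception, at 8.61 CPM in the cluster, 36.7 CPM in the other Zeb2KO KCs and 9.93 CPM in WT. The cell cycle list had the same direction, with 61.2 CPM in the cluster and 519.3 CPM in the other Zeb2KO KCs. The neutrophil list stood at 82.9 and 33.3 CPM, and its part was not tested.

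**Figure D5:**
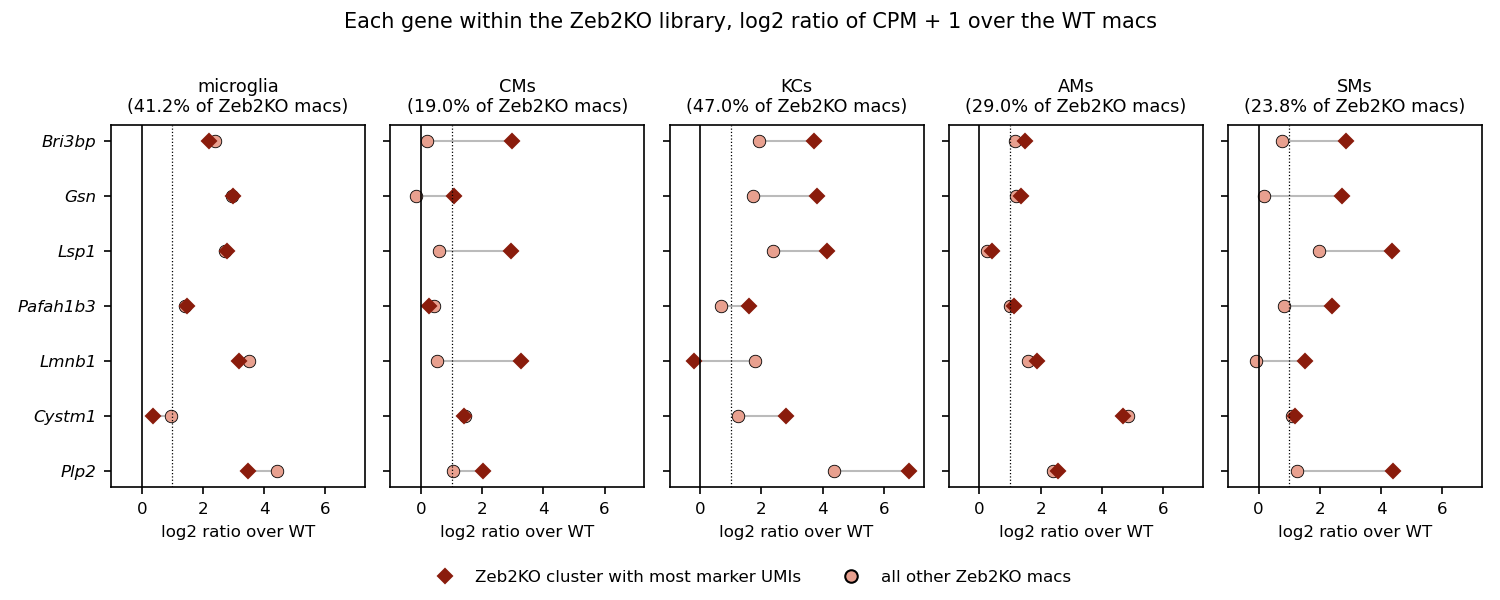
Log2 ratio of CPM + 1 over WT for each gene in the marker-rich Zeb2KO cluster (diamond) and in the other Zeb2KO macs (circle), 1 panel per tissue, with a dotted line at 1. In microglia and AMs both symbols lie close together for most genes, while in CMs and SMs the diamonds of Lsp1, Gsn and Bri3bp lie apart from the circles.

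Relatives and partners of these genes were looked at from lists. The paralogs Pafah1b2 (log2 ratio −0.17 to −0.01 over the 5 tissues) and Lmnb2 (−0.31 to 0.39) were under 2-fold in each tissue, as was Bri3 (−0.21 to 0.39), which encodes the protein that the Bri3bp product binds and is no paralog of it. In microglia Capg, another gelsolin family member that caps actin, was 2-fold higher (58.9 and 260.2 CPM, log2 ratio 2.13), as was Lmna, encoding lamins A and C (log2 ratio 1.64). Since only genes of at least 20 CPM could be counted, the lists are given against these. In the gelsolin family 1 of 2 such genes was higher in microglia (4.27% of all genes at that level), and none in the other tissues. Of 16 leukocyte actin regulators 1 was higher in KCs (3.47%), 1 higher in SMs (2.37%) and 1 lower in AMs (7.31%). Of 8 nuclear lamina genes 1 was higher in microglia, and 1 was lower in AMs. For platelet-activating factor metabolism 1 of 5 was lower in microglia (4.07%) and 1 of 3 higher in AMs (4.35%). Of the MARVEL genes 1 of 6 was higher in KCs, 1 of 8 in SMs, and 1 of 8 higher and 1 lower in AMs. None of 3 genes on a list of BRI3 and BRICHOS proteins passed. List medians ran from −0.43 (BRI3 and BRICHOS list in KCs) to 1.14 (gelsolin family in microglia, where 2 genes reached 20 CPM).

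Coro1a and Cmtm8 passed in 2 tissues each. Coro1a, which encodes the leukocyte actin regulator coronin 1A, stood at 117.8 and 537.5 CPM in WT and Zeb2KO KCs and at 58.2 and 154.4 CPM in SMs. Cmtm8, a MARVEL family relative of Plp2, stood at 13.4 and 34.5 CPM in KCs and 12.9 and 33.8 CPM in SMs. Genotype was tested across the 5 tissues over the whole table. With tissue as a block and libraries as the unit, edgeR's quasi-likelihood test called none of 14084 genes at an adjusted p of 0.05, with 1581 (11.2%) at an unadjusted p under 0.05. DESeq2 found 355 of 13111 genes (2.71%). Of the list genes 0 passed in edgeR. DESeq2 passed Coro1a (log2 0.99 ± 0.29 SE and adjusted p = 0.308 in edgeR, adjusted p = 0.032 in DESeq2) and Syne2, a nuclear envelope gene that was lower (log2 −0.69 ± 0.13 SE and adjusted p = 0.195 in edgeR, adjusted p = 0.014 in DESeq2).

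The genes with the most similar pattern over the 11 libraries were ranked by Pearson's r of log2(CPM + 1), a description over libraries that differ in tissue, genotype and depth. The closest to Bri3bp were Got2 (r = 0.94), Cep83 (0.93) and Lsp1 (0.92), and to Lsp1 Tubb4b (0.97), Tbrg1 (0.95) and Cep83 (0.92). Gsn was closest to Gm6377 (0.91), Avpi1 (0.90) and Antxr2 (0.89), and Plp2 to S100a11 (0.94), Myo1g (0.87) and Tbrg1 (0.86). For Pafah1b3 they were 1810043G02Rik (0.94), Alkbh2 (0.93) and Ccl3 (0.93), for Lmnb1 N4bp3 (0.89), Ly6i (0.89) and Got2 (0.88), and for Cystm1 Mcoln2 (0.92), Atox1 (0.92) and Aph1c (0.90). Lsp1 was the single gene of the 7 that appeared among the closest of another.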

How the data were processed

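The authors had run Cell Ranger on 10x Genomics 3′ libraries against mm10 and deposited 1 table of raw UMI counts per library. KC and AM libraries were sequenced apart from the others. The genes described, the gene lists and the markers were chosen with earlier results of these data known. Cells past 3 median absolute deviations in log UMIs or log genes, or above it in mitochondrial share, were dropped (4.66 to 9.22% of barcodes). Cells were clustered per tissue (leidenalg 0.10.2, 2000 variable genes without the genes described, 30 components, 15 neighbours, resolution 0.8), and clusters of other cell types were left out (0 to 23.6% of the cells). Clusters led by Myh11 (colon, 50 cells), Adgrf5 (liver, 412) and Fcer2a (spleen, 271) were kept, and an added alternative leaves them out. No doublet caller was run. UMIs were summed over macs and divided by their total. Intervals are exact Poisson for levels, with a half-width of 5.16% of the value in the median and at most 15.3% over the 49 levels of at least 20 CPM and wider below, and Clopper-Pearson for shares. The genes named are the 7 themselves, the list genes 2-fold apart in at least 2 tissues, named paralogs and partners, and the 3 genes most alike to each. The common shift was tested with edgeR 4.0.16 (4 residual degrees of freedom, Benjamini-Hochberg adjustment) and DESeq2 1.42.0 in R 4.3.3. Scripts ran in Python 3.11.15 with numpy 2.4.6, pandas 2.3.3 and scipy 1.17.1, and were tested on simulated data. Alternatives were other pseudocounts, floors, thinning depths, scalings, cell filters, taking off the median of genes of like length and leaving out 1 tissue.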

Additional observations from a re-analysis of the deposited data

Results flagged for a closer look

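Lmnb1 was picked out because its difference between marker-positive and other Zeb2KO macs went in opposite directions in 2 tissues. In Zeb2KO CMs its log2 ratio, marker-positive over other macs, was 1.84, and in Zeb2KO KCs it was −1.11. Each value comes from 1 library, and the difference between the tissues was not tested. A cell cycle list summed to 105.9 CPM in marker-positive and 283.1 CPM in other Zeb2KO KCs, and to 144.1 and 140.8 CPM in Zeb2KO CMs. In marker-positive CMs a general mac list summed to 11344 CPM, against 16586 CPM in the others, and a neutrophil list to 169.4 against 63.3 CPM. The part of these lists in the Lmnb1 values was not tested.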

How the results depend on the processing

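All 7 genes stayed above a ratio of 0 in each tissue under each alternative. Of 469 alternative log2 ratios, which include those between the control KC libraries, 371 stayed within the counting interval and 98 moved beyond it. A change of sign was looked for only where the 2-fold rule was met, and 0 were found. Of 231 shares at other depths 21 stayed within their interval and 210 moved, since a share of cells with a UMI depends on the UMIs per cell. The counts of genes 2-fold higher were 5 to 7 in KCs, 5 to 6 in microglia and AMs, 4 to 6 in SMs and 5 in CMs. With no cluster left out, Lsp1 in SMs went from 3.04 to 1.60 and Plp2 from 2.84 to 1.37. Without the 5% of cells with the most UMIs, 1 gene rather than 2 differed between the control KC libraries, and likewise 1 without the Alox15-led liver cluster, where Lsp1 was under 20 CPM and could not be counted. The co-detection ratio of Zeb2KO CMs was 1.25 at 3000 UMIs and 1.27 with no cluster left out, and that of WT KCs 1.97 with no cluster left out (1.20 as reported). Within clusters, an alternative chosen after seeing the data, it was 0.996 in Zeb2KO AMs, 1.01 in SMs, 1.04 in KCs and 1.09 in CMs. Requiring at least 2 marker UMIs gave 5 genes with a higher share in KCs, 3 in AMs, 2 in CMs, 1 in SMs and 0 in microglia. At 3000 UMIs per cell these counts were 6, 7, 6, 4 and 0. The cause of these moves was not tested. The test of a common shift found 355 genes by DESeq2, 2 with no filter on low counts, and 0 to 1 on leaving out 1 tissue (1 without the spleen). Without the tissue as a replicate block it found 0 genes, with 97 at an unadjusted p under 0.05. Depth limits the values under 20 CPM, where a level rests on a few UMIs.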

Other observations

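Zeb2KO macs with and without a Zeb2 UMI differed in some of these genes. In Zeb2KO KCs, 60.6% of which held a Zeb2 UMI, Lsp1 was found in 40.4% of cells with one and 23.8% of cells without, Gsn in 14.6% and 7.64%, Plp2 in 13.2% and 6.67%, and Bri3bp in 6.79% and 3.69%. In Zeb2KO SMs Lsp1 was found in 23.2% and 14.5%, Gsn in 16.7% and 10.8%, and Cystm1, with the opposite direction, in 18.5% and 23.9%. Zeb2 UMIs include those of the deleted allele, so a Zeb2 UMI does not show whether a cell kept the gene.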
